A study of Rattus norvegicus with 9 samples.

Results

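The genes described here encode NG2 and 8 other proteoglycans and matrix proteins of the brain, namely Cspg4, Cspg5, Vcan, Bcan, Ncan, Ptprz1, Tnr, Tnc and Hapln1. They were chosen by gene symbol, and 13 of the 35129 probes on the array carry one of these symbols. RNA was measured on 9 arrays from oligodendrocyte progenitor cultures of newborn rats, in which 3 cell populations were told apart by surface antigens. O4 cells carried the O4 antigen and lacked NG2, NG2/A2B5 cells carried NG2 and A2B5, and NG2 cells carried NG2 only, with 3 arrays numbered I, II and III in each population. No treatment or genetic change is named in the labels, which also do not give the strain or tie the numerals to the 3 cultures of the series text. All p-values therefore measure the spread between these arrays, which may be partly technical.

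NG2, the product of Cspg4, is a transmembrane chondroitin sulfate proteoglycan that marks oligodendrocyte progenitors and is lost as they mature. Versican, brevican and neurocan (Vcan, Bcan and Ncan) are lecticans, which bind hyaluronan at one end and tenascin-R at the other, and the link protein of Hapln1 holds the lectican on the hyaluronan chain. Tenascin-R (Tnr) is made largely by the oligodendrocyte lineage, whereas tenascin-C (Tnc) belongs to the matrix of the developing and injured brain. The receptor phosphatase of Ptprz1, whose secreted form is phosphacan, binds both tenascins.

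Each probe had a deposited scaled intensity, with array medians between 1.05 and 1.07, and between 34926 and 34975 probes had a value on an array. Readings are given as intensity or as log2 of it. A reading is called near background where it lies under the 25th percentile of its array (0.205 to 0.255). Each gene was represented by its probe with the highest mean, which gave 12167 genes. Called means an adjusted p (Benjamini-Hochberg, over all genes tested) below 0.05 in limma. Of the 16 genes listed as progenitor markers, 9 were measured. Sox10, Bcas1 and Cnp read far above the array medians, at no less than 29.7, 207 and 155. Olig2 and Pdgfra, defining markers of these cells, read under the array medians, between 0.292 and 0.709 and between 0.213 and 0.917. In bulk RNA, fewer cells of a type and less RNA per cell cannot be told apart. Signal depends on the probe, so intensities do not rank one gene's RNA against another's.

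Over the 9 arrays the tenascin genes and versican differed more between numerals than between populations. On average over the populations, Tnc was 8.81-fold lower on arrays III than on arrays II, while Tnr was 4.23-fold and Vcan 2.03-fold higher. Each of these directions held in every population. Between the populations no member was called, Cspg4 included. Limma called 1 gene of 12165 in O4 against NG2 (0.00822%), 1 in O4 against NG2/A2B5 (0.00822%) and 0 in NG2/A2B5 against NG2 (0%). At an unadjusted p under 0.05 there were 973, 399 and 545 genes, and 0 members in any of the 3. These counts are from the fit without a block. With the numeral as a block, 3 members had an unadjusted p under 0.05 in O4 against NG2 (Cspg5, Vcan and Tnr). There were 2 in NG2/A2B5 against NG2 (Vcan and Cspg5) and 0 in O4 against NG2/A2B5. Again 0 members were called, and 0 genes (0%). How many of all genes reached that unadjusted p with the block was not counted. These member counts thus have no background beside them. The F test over the populations also called 1 gene (0.00822%), again no member.

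**Figure D1:**
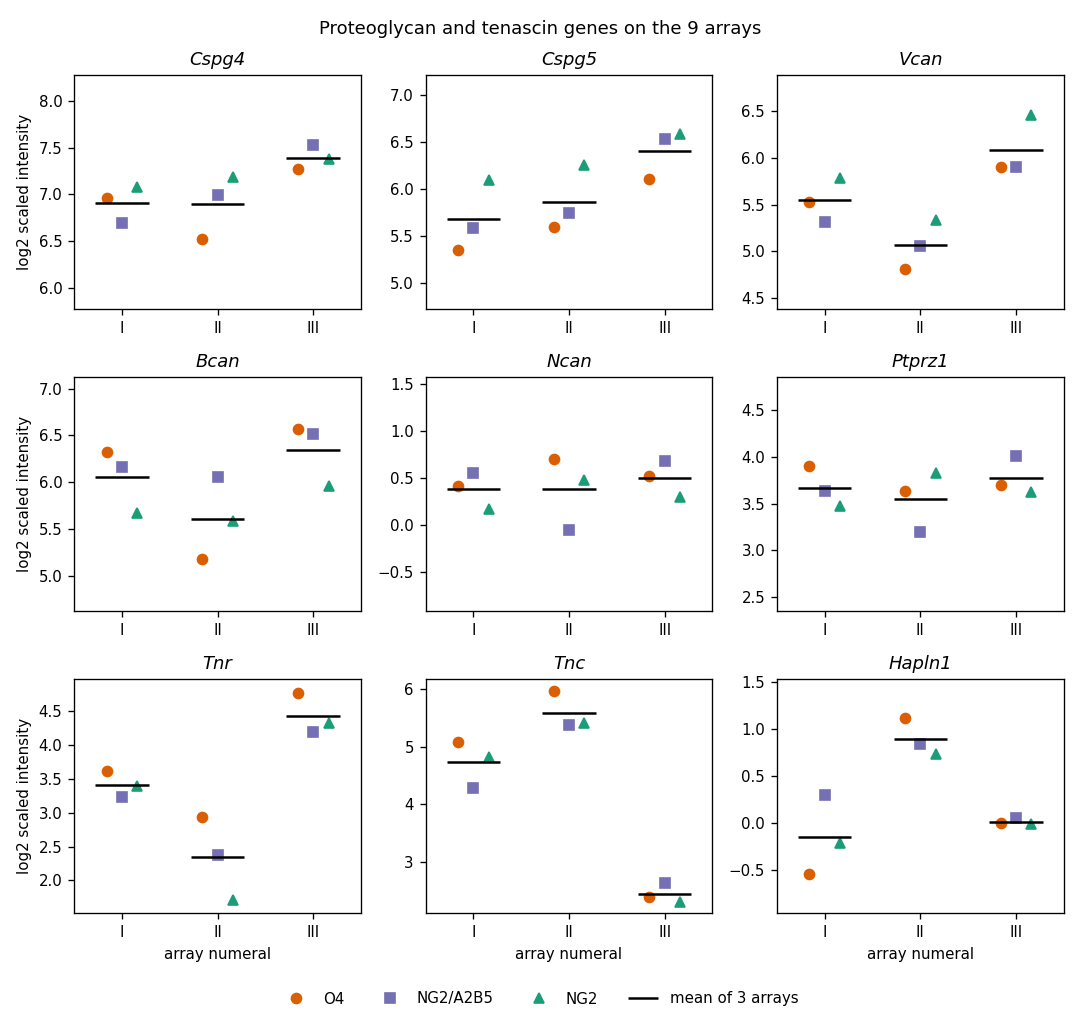
Log2 scaled intensity (vertical axis) of each of the 9 genes, by array numeral (horizontal axis), for the probe with the highest mean. Each point is 1 array, marked by population, and each bar is the mean of the 3 arrays of a numeral. The Tnc arrays of numeral III lie between 2.31 and 2.64, under all others, and those of Tnr between 4.18 and 4.77, above all others.

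Tenascin-C gave the widest spread over the 9 arrays among the probes that represent the members. In the order O4, NG2/A2B5, NG2, its brighter probe read 34.1, 19.4 and 28.1 on arrays I. On arrays II it read 62.8, 41.6 and 42.4, and on arrays III 5.25, 6.24 and 4.95. The order II, I, III held in each population, and the 3 numerals did not overlap. On the log2 scale the means were 4.73 ± 0.41 for I (SD, n = 3), 5.59 ± 0.34 for II and 2.45 ± 0.17 for III. The difference of III minus II was -3.14 (95% interval -3.72 to -2.56, SE 0.23, adjusted p 0.0216, limma), and by population -3.58 (O4), -2.74 (NG2/A2B5) and -3.10 (NG2). III minus I was -2.28 (adjusted p 0.169) and II minus I was 0.86 (adjusted p 0.181), so neither neighbouring pair passed.

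The second Tnc probe, whose readings share the RNA of the first, showed the same order of numerals. It read 10.9, 8.75 and 9.90 in O4, NG2/A2B5 and NG2 on arrays II, but 0.753, 0.982 and 0.899 on arrays III, under the array medians. Its III minus II difference was -3.49 (interval -4.10 to -2.88). Between populations, the brighter Tnc probe had log2 means of 4.49 ± 1.86 (SD, n = 3) for O4, 4.10 ± 1.38 for NG2/A2B5 and 4.18 ± 1.64 for NG2. O4 minus NG2 was 0.31 with an interval of -2.44 to 3.06, which is wide because the numerals stand apart within each population. With the numeral as a block that interval was -0.27 to 0.89.

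Tenascin-R lay the other way. In the same order of populations, Tnr read 12.3, 9.36 and 10.5 on arrays I, 7.66, 5.2 and 3.28 on arrays II, and 27.2, 18.1 and 20.0 on arrays III. All 3 populations had the order III, I, II, again with no overlap between numerals. III minus II was 2.08 (interval 1.52 to 2.64, adjusted p 0.0240), III minus I was 1.01 (adjusted p 0.261) and II minus I was -1.07 (adjusted p 0.124). By population the III minus II difference was 1.83 (O4), 1.80 (NG2/A2B5) and 2.61 (NG2). Within each numeral O4 had the highest Tnr reading, and O4 minus NG2 was 0.23, 1.22 and 0.44 on I, II and III. That contrast averaged 0.63 (interval -1.17 to 2.43, adjusted p 0.866), and with the numeral as a block its interval was 0.071 to 1.19 (adjusted p 0.342).

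Versican followed the order of Tnr. The brighter Vcan probe read 46.2, 39.8 and 55.2 in O4, NG2/A2B5 and NG2 on arrays I, 28.1, 33.3 and 40.4 on arrays II, and 59.9, 59.6 and 87.8 on arrays III. III minus II was 1.02 (interval 0.69 to 1.35, adjusted p 0.0302), at 1.09, 0.84 and 1.12 in the 3 populations. III minus I was 0.54 (adjusted p 0.268). The dimmer probe, at 1.01 to 2.72, gave 0.93 for III minus II (interval 0.31 to 1.55), and its arrays III also lay above its arrays II. NG2 had the highest reading of the brighter probe on each numeral, and O4 minus NG2 was -0.26, -0.52 and -0.55. The mean of -0.44 had an interval of -1.35 to 0.46 (adjusted p 0.799), and with the numeral as a block -0.78 to -0.11 (adjusted p 0.315). NG2/A2B5 minus NG2 was also -0.44, with a blocked interval of -0.77 to -0.10 (adjusted p 0.499).

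The 300 bases around the annotated starts of these 3 genes, from 250 before to 50 after, are shown because they are the members called between numerals. They come from RefSeq on build GRCr8. Capitals mark exact matches to the TATA motif TATAAA, the GC box GGGCGG and the HMG-box motif ACAAAG on either strand.
Tnc, chr5:82476082-82476381, minus strand: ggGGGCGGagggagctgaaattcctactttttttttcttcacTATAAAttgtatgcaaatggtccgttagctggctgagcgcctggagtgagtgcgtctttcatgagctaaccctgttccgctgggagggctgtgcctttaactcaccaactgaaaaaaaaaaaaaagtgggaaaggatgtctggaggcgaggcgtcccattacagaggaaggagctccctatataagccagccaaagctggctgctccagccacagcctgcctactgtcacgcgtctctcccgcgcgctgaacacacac
Tnr, chr13:74624776-74625075, plus strand: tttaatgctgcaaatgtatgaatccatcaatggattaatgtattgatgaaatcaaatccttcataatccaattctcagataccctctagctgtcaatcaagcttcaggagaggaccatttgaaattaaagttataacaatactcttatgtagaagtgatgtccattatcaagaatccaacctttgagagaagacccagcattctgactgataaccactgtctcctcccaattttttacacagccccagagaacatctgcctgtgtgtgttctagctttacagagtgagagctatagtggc
Vcan, 1 of its 2 entries, chr2:22595906-22596205, minus strand: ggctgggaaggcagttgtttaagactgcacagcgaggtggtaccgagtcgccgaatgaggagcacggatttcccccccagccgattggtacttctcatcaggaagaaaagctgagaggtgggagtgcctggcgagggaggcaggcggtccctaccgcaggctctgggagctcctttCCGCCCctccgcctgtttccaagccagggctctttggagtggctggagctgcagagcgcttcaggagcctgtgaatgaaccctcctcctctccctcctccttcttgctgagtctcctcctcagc
The Tnc window holds 1 TATAAA and 1 GGGCGG, and that of Vcan holds 1 GGGCGG. The TATAAA of Tnc lies toward the upstream end of its window, far from the annotated start. The similar letters tatataa, shortly before that start, are no exact match and stay in lower case. The Tnr window holds none of the 3 motifs and has 38.3% G or C, against 52.3% in Tnc and 61.0% in Vcan. CANNTG, the core of sites for basic helix-loop-helix factors, occurs 3 times in the Tnr window, 2 times in that of Tnc and once in that of Vcan, overlapping none of the capitals. Of 33469 promoter windows of this length in the table, 14.2% hold TATAAA, 33.1% GGGCGG, 18.8% ACAAAG and 72.1% CANNTG. A match describes the letters of these windows and no factor was measured at them.

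Each numeral is a set of 3 arrays, 1 of each population, and no such set was repeated. Intervals and p-values between numerals thus do not measure the spread between repeated sets. Between numerals III and II limma called 3 of the 9 members, against 432 of 12166 genes (3.55%). By direction it called Tnr and Vcan among 199 genes higher on III (1.64%) and Tnc among 233 lower (1.92%). The median of the 9 differences was 0.49, with 7 positive, and over all genes it was -0.077. The median size, sign aside, was 0.74 for the members and 0.32 for all genes. Without any 1 of the 9 arrays the count of members was 0, with adjusted p-values of 0.0559 to 0.121 for Tnc, 0.0638 to 0.121 for Tnr and 0.0671 to 0.148 for Vcan, while the differences stayed between -3.40 and -2.92, 1.80 and 2.24, and 0.94 and 1.12. All genes together then had 0 to 5 calls. With every probe tested on its own, 0 members and 0 of all probes (0%) were called, with adjusted p-values of 0.0701 for Tnc, 0.0747 for Tnr and 0.0885 for Vcan. With the mean of each gene's probes Vcan had an adjusted p of 0.0708, and 1.12% of genes were called. Between III and I, and between II and I, 0 members were called, against 0 genes (0%) and 28 genes (0.230%), and 5 and 4 members had an unadjusted p under 0.05, as had 1527 and 2087 genes. Other settings called more members between numerals, and more of all genes. A floor at the 25th percentile, leaving out genes under it, and trend and robust variance estimates called 10.6%, 12.3% and 15.5% of genes for III minus II. They called 0.403%, 0.252% and 2.56% for III minus I, and 3.30%, 3.68% and 6.85% for II minus I.

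**Figure D2:**
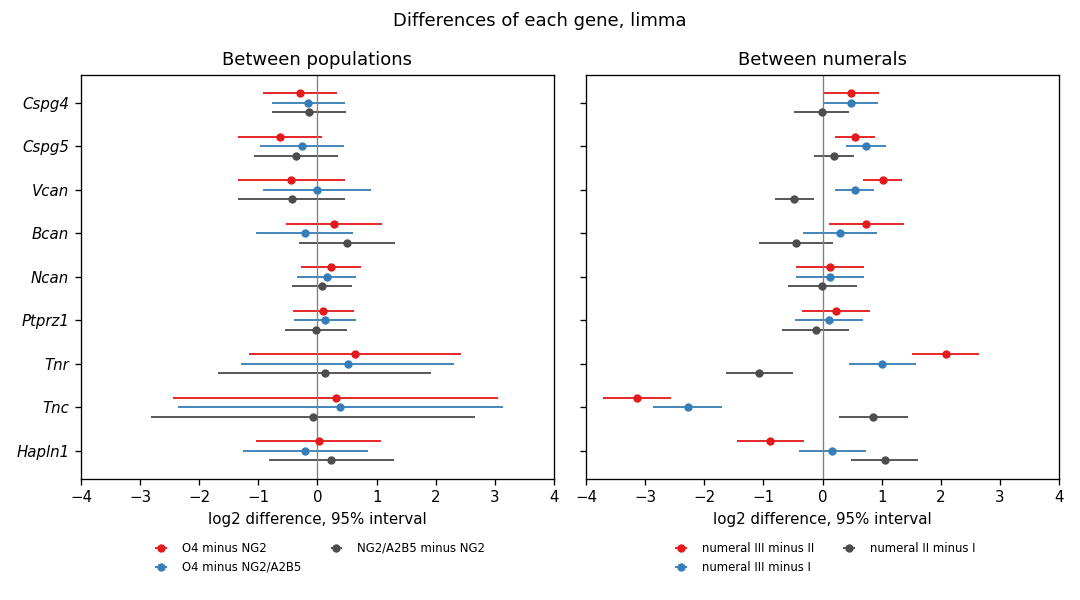
Log2 difference (horizontal axis) of each gene between populations (left) and between numerals (right), from limma on 1 probe a gene. Points are differences and bars are 95% intervals. On the left, from the fit without a block, all intervals include 0. On the right Tnc at -3.14 and Tnr at 2.08 lie farthest from 0 for III minus II.

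Of the members that were not called, Hapln1, Bcan, Cspg4 and Cspg5 had an unadjusted p under 0.05 for III minus II, and Ncan and Ptprz1 did not. With the called members that made 7 of 9, beside 2878 of 12166 for all genes. Hapln1, the link protein gene, read 2.17, 1.80 and 1.66 in O4, NG2/A2B5 and NG2 on arrays II, above the 0.685, 1.23 and 0.860 of arrays I and the 1.0, 1.04 and 0.991 of arrays III. Its III minus II difference was -0.88 (interval -1.45 to -0.32, adjusted p 0.0978), and II minus I was 1.05 (adjusted p 0.128). Near the array medians, these readings have less range than those of the tenascins. Bcan, the gene of brevican, read 80.1, 71.6 and 51.0 on arrays I, 36.3, 66.3 and 48.0 on arrays II, and 94.6, 91.3 and 62.3 on arrays III. It had the order III, I, II in each population, like Tnr and Vcan, with III minus II at 0.74 (interval 0.11 to 1.37, adjusted p 0.162). In O4 that difference was 1.38, and in NG2/A2B5 and NG2 it was 0.46 and 0.37.

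Cspg4, the gene of NG2 itself, read 125, 104 and 135 in O4, NG2/A2B5 and NG2 on arrays I, 92.1, 127 and 146 on arrays II, and 154, 185 and 166 on arrays III. Array III had the highest reading in each population, and all arrays III lay above the others. III minus II was 0.49 (interval 0.024 to 0.96, adjusted p 0.195) and III minus I was 0.48 (adjusted p 0.389). Within numerals, O4 minus NG2 was -0.12, -0.66 and -0.11, so the cells labelled as NG2-negative read lower than NG2 cells in 3 of 3 numerals. The mean of -0.30 had an interval of -0.92 to 0.32 without a block (adjusted p 0.803, limma). With the numeral as a block it was -0.76 to 0.17 (adjusted p 0.529, limma), so both intervals include 0. Against NG2/A2B5 cells, which also carry NG2, the O4 reading was higher on I and lower on II and III (0.26, -0.47 and -0.26). NG2/A2B5 minus NG2 was -0.38, -0.20 and 0.15. Pericytes also express Cspg4, and the summed intensity of 9 pericyte markers lay between 45.7 and 46.9 on the O4 arrays, between 37.1 and 49.6 on those of NG2/A2B5 and between 35.7 and 52.6 on those of NG2. Most of that sum came from Anpep and Notch3, while Rgs5, Kcnj8 and Pdgfrb were near background on 9, 7 and 6 arrays. The part of pericytes in the Cspg4 readings was not tested.

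Cspg5 encodes neuroglycan C, another transmembrane chondroitin sulfate proteoglycan, and was the member with an order of populations shared by all numerals. It read 40.8, 48.0 and 68.7 in O4, NG2/A2B5 and NG2 on arrays I, 48.3, 53.7 and 76.4 on arrays II, and 69.2, 92.4 and 96.3 on arrays III. NG2 was highest and O4 lowest each time. Of the members, 1 of 9 had the same order of populations on every numeral, against 721 of 12025 genes (6.0%), and this order was found in 208 genes (1.73%). O4 minus NG2 was -0.75, -0.66 and -0.48, on average -0.63 (interval -1.34 to 0.082, adjusted p 0.663). With the numeral as a block the interval was -0.97 to -0.29 and the adjusted p 0.295. For NG2/A2B5 minus NG2 the blocked interval was -0.70 to -0.024 (adjusted p 0.562). For O4 minus NG2 with the block and with trend and robust variance estimates, a setting added with the results in view, Cspg5 was called lower in O4 (adjusted p 0.0406), with 49 genes called lower (0.403%). Cspg5 also differed between numerals, with III minus I at 0.73 (interval 0.39 to 1.07, adjusted p 0.239).

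Ptprz1 and Ncan varied least with the numeral. The brighter Ptprz1 probe read 9.14 to 16.1 and gave O4 minus NG2 as 0.10 (interval -0.42 to 0.62). The other, at 4.55 to 9.93, gave -0.53 (interval -1.07 to 0.0092). Its O4 arrays (4.55 to 6.05) all lay under its NG2 arrays (6.38 to 9.93), and 14.0% of genes had no overlap in this contrast. The probes of this gene thus differ in sign, with intervals that overlap and both include 0. Ncan, the gene of neurocan, read 0.967 to 1.63, near the array medians, and its differences between numerals lay between -0.0019 and 0.12. The second Bcan probe was near background on 5 arrays and gave no usable difference.

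Arrays of III and II did not overlap for 5 of the 9 members, with Cspg4, Vcan and Tnr higher and Tnc and Hapln1 lower on III, against 26.5% of all genes. Those of III and I did not overlap for 5 members (18.4% of genes), and those of II and I for 3 (21.6%). Between populations there was no overlap for Bcan in NG2/A2B5 against NG2, where it read higher (71.6, 66.3 and 91.3 against 51.0, 48.0 and 62.3, difference 0.50, interval -0.31 to 1.32), against 10.2% of genes. There was none among the 9 in O4 against NG2 (14.0% of genes) or O4 against NG2/A2B5 (8.67%). The same order of numerals in all populations was found for 5 members, Cspg5, Vcan, Bcan, Tnr and Tnc, against 1332 of 12025 genes (11.1%). The order III, I, II of Vcan, Bcan and Tnr was found in 2.82% of genes, the order II, I, III of Tnc in 4.02% and the order III, II, I of Cspg5 in 1.03%.

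**Figure D3:**
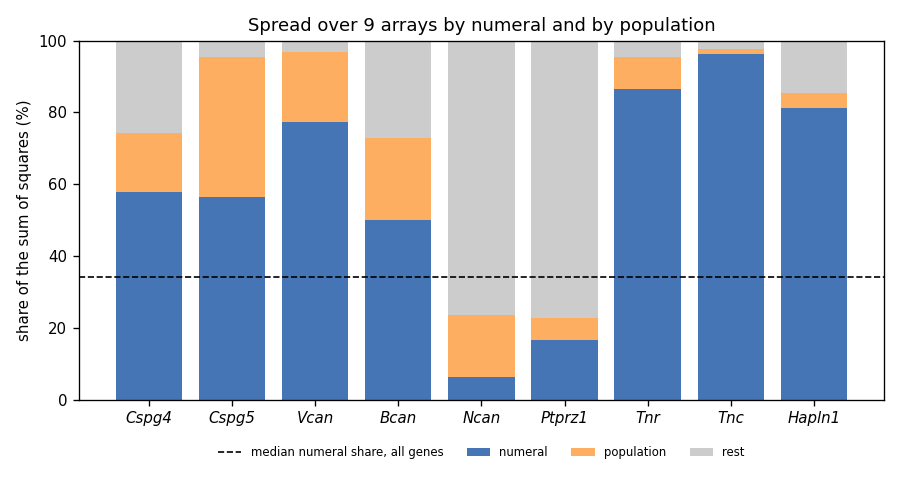
Share of each gene's sum of squares over the 9 arrays (vertical axis, percent of log2 values) that lies between numerals, between populations and in neither. The numeral took 96.2% for Tnc, 86.5% for Tnr and 6.26% for Ncan, and the dashed line is its median over all genes, 34.3%.

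Split in this way, the numeral held 81.2% of the spread of Hapln1, 77.4% of Vcan, 57.8% of Cspg4, 56.5% of Cspg5 and 49.9% of Bcan. The population share was largest for Cspg5 among the brighter probes, at 38.9%, and smallest for Tnc, at 1.52%. Over all genes the median population share was 21.2%. These shares describe the arrays, without a test.

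Some markers of the cells present also differed between numerals, and not all in one direction. The summed intensity of the 9 measured genes listed as progenitor markers was 561 to 697 on arrays III, 440 to 452 on II and 450 to 527 on I. Most of that sum came from Bcas1 and Cnp, so it follows those genes more than the list as a whole. For III minus II, 7 of the 9 differences were positive and 2 negative, with a median of 0.49, and 1 gene, C1ql1, was called, higher by 0.85 (adjusted p 0.0422). Olig2 read lower on III than on II in each population (0.496, 0.292 and 0.463 against 0.706, 0.611 and 0.709), and Olig1 was lower on III in O4 and NG2 and higher in NG2/A2B5. Of 9 astrocyte markers 8 were measured, and their sum was 112 to 160 on III and 65.4 to 101 on II. Most of that sum came from Slc1a3 and Aldoc, genes that progenitors also express. Gene by gene, 4 of the 8 differences were positive and 4 negative, with a median of -0.053. Gja1, the astrocyte gap junction gene, read lower on III than on II in each population (0.253, 0.274 and 0.168 against 1.03, 0.532 and 1.56). Aldoc was called higher on III by 1.27 (adjusted p 0.0284). Gfap, the defining astrocyte filament gene, was called higher by 1.72 (adjusted p 0.0240) at readings of only 0.352 to 0.597 against 0.113 to 0.187, the latter near background. The sums on III and II overlapped for pericytes (9 of 10 measured, 35.7 to 46.9 and 37.1 to 52.6), where Anpep and Notch3 gave most of the sum and Rgs5 was near background on every array. They also overlapped for microglia (12 of 12, 11.6 to 13.5 and 12.3 to 17.3), where C1qa, C1qb and C1qc were near background on every array. For fibroblasts (7 of 8) they were 26.6 to 31.3 and 29.0 to 36.6, with Lum and Twist1 near background throughout. For neurons (6 of 10) they were 8.08 to 14.0 and 12.9 to 17.7, with Snap25 near background throughout. Itgam and Cd68 gave most of the microglia sum, Col1a1 and Col1a2 most of the fibroblast sum and Gad1 most of the neuron sum. The part of these markers in the differences of Tnc, Tnr and Vcan was not tested.

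Other genes of this matrix were taken from 5 lists, which hold 96 measured genes of 117. Between III and II, 7 of the 96 were called, 3 higher and 4 lower, against the 3.55% of all genes. Itga9, the gene of an integrin subunit that binds tenascin-C, read 4.29 to 5.50 on arrays II and 17.5 to 24.6 on arrays III, a difference of 2.21 (interval 1.72 to 2.69, adjusted p 0.0216). Its second probe gave 2.33. Itga9 was thus higher on the arrays where Tnc was lower, in each population. It was named because it was called between III and II, as Tnc was, so this opposition is no separate result. A link between these genes was not tested. Acan, the gene of the lectican aggrecan, was higher on III by 2.58 (adjusted p 0.0290), from 0.112 to 0.344 up to 1.18 to 1.77, with 1 reading near background. The heparan sulfate proteoglycan gene Sdc4 was higher by 1.48 (adjusted p 0.0250).

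The 4 genes lower on III included Cd44, a hyaluronan receptor, which read 1.99, 2.15 and 2.67 in O4, NG2/A2B5 and NG2 on arrays II and 0.983, 0.726 and 0.861 on arrays III. Its difference was -1.41 (interval -1.80 to -1.01, adjusted p 0.0240). Sdc1, another syndecan, was lower by a log2 difference of -1.40 (adjusted p 0.0415). Adamts1, a protease that cleaves lecticans, differed by -1.14 (adjusted p 0.0477), and Timp1, an inhibitor of matrix proteases, by -1.27 (adjusted p 0.0439). By list, 1 of 13 hyaluronan and link protein genes was called, 2 of 16 protease and inhibitor genes, 1 of 24 receptor and partner genes, 3 of 22 other proteoglycan and tenascin genes, and 0 of 21 chondroitin sulfate synthesis genes. Without any 1 array each of these 7 genes also missed the threshold, with adjusted p-values of 0.0559 to 0.185.

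**Figure D4:**
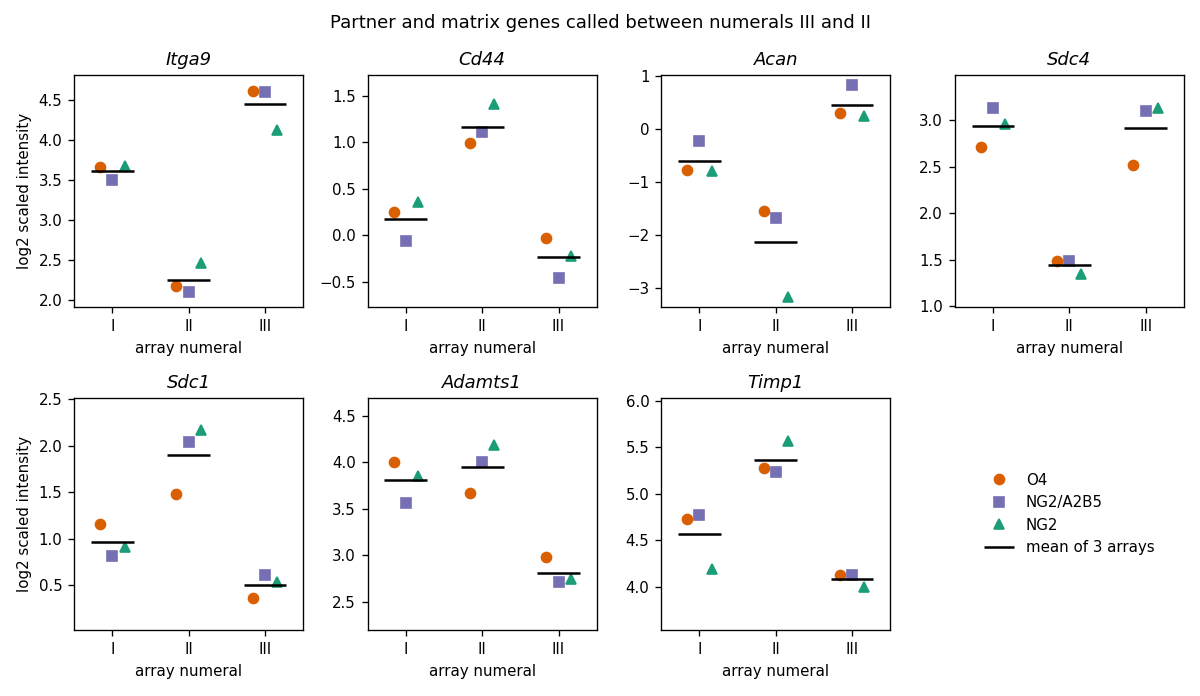
Log2 scaled intensity (vertical axis) of the 7 matrix and partner genes called between numerals III and II, by array numeral (horizontal axis). Points are single arrays marked by population and bars are means of 3 arrays. Itga9, Acan and Sdc4 lie higher on III than on II, and Cd44, Sdc1, Adamts1 and Timp1 lower.

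Between populations 0 of the 96 genes were called in limma. At an unadjusted p under 0.05 there were 5 of them in O4 against NG2, beside 973 of 12165 for all genes. There were 4 in O4 against NG2/A2B5 (all genes 399 of 12165) and 5 in NG2/A2B5 against NG2 (545 of 12166). Those with the smallest p of their lists included Mpdz, which binds the intracellular end of NG2, at -0.78 for O4 minus NG2 (adjusted p 0.562), and Csgalnact2, an enzyme that starts chondroitin sulfate chains, at -0.54 (adjusted p 0.566). Hapln2, the link protein of nodes of Ranvier, differed by 1.19 in that contrast (adjusted p 0.562) with 4 readings near background, and Htra1, a secreted protease, by -0.78 in NG2/A2B5 minus NG2 (adjusted p 0.969). Sdcbp, the gene of syntenin, which also binds NG2, had the highest mean of its list at 7.38 and differed by -0.23 between O4 and NG2 (adjusted p 0.764).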

How the data were processed

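RNA of 9 samples was amplified and biotin labelled, and spiked controls were used to normalize, per the labels' protocols. Scanner and software: not given in the sources used here. Deposited values are scaled probe intensities on a linear scale, with missing values coded -9999. Values at or below 0 (291 to 352 an array) were raised to the lowest positive reading of that array, and log2 was taken.

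Of 35129 probes, 16865 carry 1 gene symbol, 165 several and 18099 none, and symbols were updated by Entrez identifier through RefSeq (GRCr8, 16836 matched). Contrasts came from limma 3.58.1 in R 4.3.3 (lmFit, eBayes, two-sided), without a block between populations (6 residual degrees of freedom) and with population as a covariate between numerals (4). The pipeline was tested on simulated data. Same-numbered arrays of different populations correlated in their deviations from population means (r 0.217 to 0.462 in 9 pairs, over 9785 genes), so the numerals were taken to pair the arrays. In 18 pairs of unlike numerals r was -0.357 to 0.00467. Centring on population means ties these values to those of like numerals, so they are not separate evidence.

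Named genes were the members, list genes that were called, and otherwise 2 genes a list by the F test and 1 by mean, of which a part is printed. The members, lists and numeral contrasts were chosen with earlier results of these data known. Figures were drawn with matplotlib 3.10.9. The number of arrays limits the precision.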

Additional observations from a re-analysis of the deposited data

How the results depend on the processing

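Between populations the count of members called was 0 under every setting run, except that the replicate block with trend and robust variance estimates, added after the data were seen, called 1 (Cspg5) in O4 against NG2. The replicate block alone, fixed or random, called 0 members. Of the 528 member differences recomputed between populations, 31 had another sign than the value reported, each for a difference that was not called. Between numerals the count moved more. For III minus II it was 3, but 5 when readings were floored at the 25th percentile, 5 with genes under that percentile left out, 7 with trend and robust estimates, 0 with all probes and 0 to 0 in the fits without 1 array, which have fewer residual degrees of freedom. For III minus I it was 0, and 1, 1 and 4 with the floor, the filter and trend and robust estimates. For II minus I it was 0, and 2, 2 and 4. The genes called for III minus II under these settings rose in number likewise, to 1293 with the floor, 1217 with the filter and 1887 with trend and robust estimates, and were 136 with the mean of each gene's probes. The cause of these shifts was not tested. No called member changed sign. The median of all genes was 0.10 for II minus I. Centring the array medians and quantile normalization each called 3 members for III minus II, Tnc, Tnr and Vcan.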

Other observations

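The 3 genes whose log2 values, centred on each gene, lay closest to those of Cspg4 over the 9 arrays were Glud1, the mitochondrial glutamate dehydrogenase, Cpe, a carboxypeptidase of secretory granules, and Scp2, a sterol carrier protein. Their root mean square differences from Cspg4 were 0.080, 0.11 and 0.11, among 9784 genes compared. Glud1 ranged from 4.38 on array II of O4 to 5.26 on array III of NG2/A2B5, the arrays that were also lowest and highest for Cspg4. This is a description of 9 arrays that share their RNA across genes.

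Matn4, a matrix adaptor protein gene of the progenitor list that was picked after its values were seen, read 3.80 to 5.31 on arrays III, 0.798 to 2.6 on II and 1.03 to 1.81 on I. Emid1, of the same list, read 0.147 to 0.662 in NG2, 1.14 to 1.69 in O4 and 1.34 to 2.75 in NG2/A2B5. Its difference was 2.44 for NG2/A2B5 minus NG2 (adjusted p 0.862, limma) and 1.91 for O4 minus NG2 (0.566).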
